A study of Homo sapiens with 20 samples.

Results

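The genes of bile acid synthesis and transport described here are CYP7A1, CYP8B1, CYP27A1, CYP7B1, BAAT, SLC10A1, ABCB11, ABCB4, SLC51A and SLC51B. They were chosen by name, as every probe whose transcript accession belongs to 1 of the 10 symbols. The array held 10 such probes, 1 for each gene, among 42405 probes. A probe was tested where, in 1 condition or more, all 4 arrays put its signal well above background, and all 10 were, among 22221 genes tested. CYP27A1, CYP7B1, BAAT and ABCB4 passed it in all 5 conditions. CYP7A1, CYP8B1 and SLC10A1 passed it in all but D4. SLC51B passed through D15 and D30 - DMSO, ABCB11 through D30 - DMSO and D34 +/- DMSO, and SLC51A through D34 +/- DMSO alone, so a place among the tested genes is itself tied to a high condition for these 3. CYP7A1, CYP8B1 and SLC10A1, like these 3, did not pass in D4, the low group of D15 against D4.

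Bile acids are made from cholesterol in hepatocytes, conjugated to an amino acid and secreted into the bile canaliculus, and most of them are taken back from portal blood. CYP7A1 starts the classic synthesis route, CYP8B1 adds the hydroxyl group that sets the share of cholic acid, and CYP27A1 and CYP7B1 belong to the alternative route. BAAT joins the bile acid to glycine or taurine, SLC10A1 (NTCP) takes conjugated bile acids up from blood, ABCB11 (BSEP) and ABCB4 export bile acids and phospholipid into bile, and SLC51A with SLC51B (OSTα and OSTβ) form the exporter of the basolateral side. Synthesis is held back by bile acids themselves through the nuclear receptor FXR (NR1H4) and its target SHP (NR0B2), and FXR is known to induce ABCB11, SLC51A and SLC51B.

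The cells were HepaRG, 1 human hepatoma line whose progenitors give rise to both hepatocyte-like and biliary-like cells. All conditions shared a medium with insulin and 50 µM hydrocortisone. D4 cells were collected on day 4, D15 cells on day 15, and D30 - DMSO cells on day 30, none of them exposed to dimethyl sulfoxide (DMSO). D30 + DMSO cells received 2% DMSO from day 15 to day 30, and D34 +/- DMSO cells were treated in the same way and then kept for 4 more days without it. Each condition had 4 arrays, from 4 independent experiments, and the 20 arrays were spread over 4 slides.

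The genes lie at separate loci on GRCh38.p14. CYP8B1 is at chr3:42872192-42875879, CYP27A1 at chr2:218782147-218815293, ABCB11 at chr2:168915390-169031324, ABCB4 at chr7:87365896-87476027 and SLC51A at chr3:196216534-196233427. SLC10A1 spans chr14:69775416-69797241, BAAT chr9:101360417-101385006 and SLC51B chr15:65045387-65053397. CYP7A1 and CYP7B1 lie on a chromosome that none of the others share, and their positions are not used here.

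The promoters of the 3 genes called in a comparison of D34 +/- DMSO cells are printed here as the 250 bases before the transcription start in RefSeq, on build GRCh38.p14. Capitals mark AGGTCA on either strand, the core site that many nuclear receptors bind.
SLC51B, chr15:65045137-65045386, plus strand: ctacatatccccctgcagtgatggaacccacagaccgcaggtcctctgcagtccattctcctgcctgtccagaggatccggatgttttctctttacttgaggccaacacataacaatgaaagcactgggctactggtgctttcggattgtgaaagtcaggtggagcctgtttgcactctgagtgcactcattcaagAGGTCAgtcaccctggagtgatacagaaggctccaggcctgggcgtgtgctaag
SLC10A1, chr14:69797242-69797491, minus strand: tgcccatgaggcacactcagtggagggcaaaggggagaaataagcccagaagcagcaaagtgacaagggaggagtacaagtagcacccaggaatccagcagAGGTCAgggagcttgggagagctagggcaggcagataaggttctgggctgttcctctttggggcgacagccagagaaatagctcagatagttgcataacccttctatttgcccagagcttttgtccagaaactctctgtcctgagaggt
BAAT, chr9:101383565-101383814, minus strand: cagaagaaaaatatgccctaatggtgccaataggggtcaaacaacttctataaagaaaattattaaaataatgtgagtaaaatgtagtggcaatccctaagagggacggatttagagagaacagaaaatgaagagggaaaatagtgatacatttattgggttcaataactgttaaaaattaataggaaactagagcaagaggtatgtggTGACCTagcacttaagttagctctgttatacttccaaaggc
In SLC51B the core site began 54 bases before the start, in SLC10A1 149 bases before it, and in BAAT it lay on the reverse strand 41 bases before it. A second BAAT start, with the window chr9:101383874-101384123, held none. Windows of 6 of the 10 genes were used, 7 in all since BAAT has a second start. Counted per gene, 3 of the 6 (these 3, with 0 matches in ABCB11, CYP27A1 and SLC51A) held the core site. Counted per window, 3 of the 7 held it, where 12.1% of all 35116 promoter windows of the same length do. The 3 printed genes were picked by their calls, and a part of the core site in their levels was not tested. The exact inverted repeat of GGTCA and TGACC with 1 base between, a form that FXR binds with its partner RXR, was also searched. It was in 0 of the 6 and in 3 of the 35116 windows (0.00854%). Repeats that differ from it by a base were not counted, so 0 matches do not show that an FXR site is absent. Windows of CYP7A1, CYP8B1, CYP7B1 and ABCB4 were not used here.

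Signals are the background-subtracted array signals after every array was scaled to the same 75th percentile, and log2 differences are differences of their log2 values. Replicate arrays correlated at r of 0.955 to 0.992 over all tested genes, and 61.1% to 74.2% of the spots of an array were well above background. Deviations from the condition means were alike on arrays of the same slide (median r of 0.377 over 44 pairs, all above 0.1) and not on arrays of different slides (median r of -0.167 over 116 pairs). Slide 4 held 7 arrays, among them replicate 4 of every condition. It alone made up the second of 2 scan sessions, so slide 4 cannot be told apart from that session. The part of slide, session or experiment in the values of replicate 4 was not tested. For the bile acid genes, replicate 4 was the lowest array for 8 of 10 in D30 - DMSO, 8 of 10 in D30 + DMSO and 7 of 10 in D34 +/- DMSO, but for 0 of 10 in D4 and D15. All 10 hepatocyte markers (ALB, TTR, APOA1 and others) were well above background on every array, and so were the 7 of 10 biliary and progenitor markers that passed the filter. EPCAM, CFTR and PROM1 did not pass it.

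**Figure D1:**
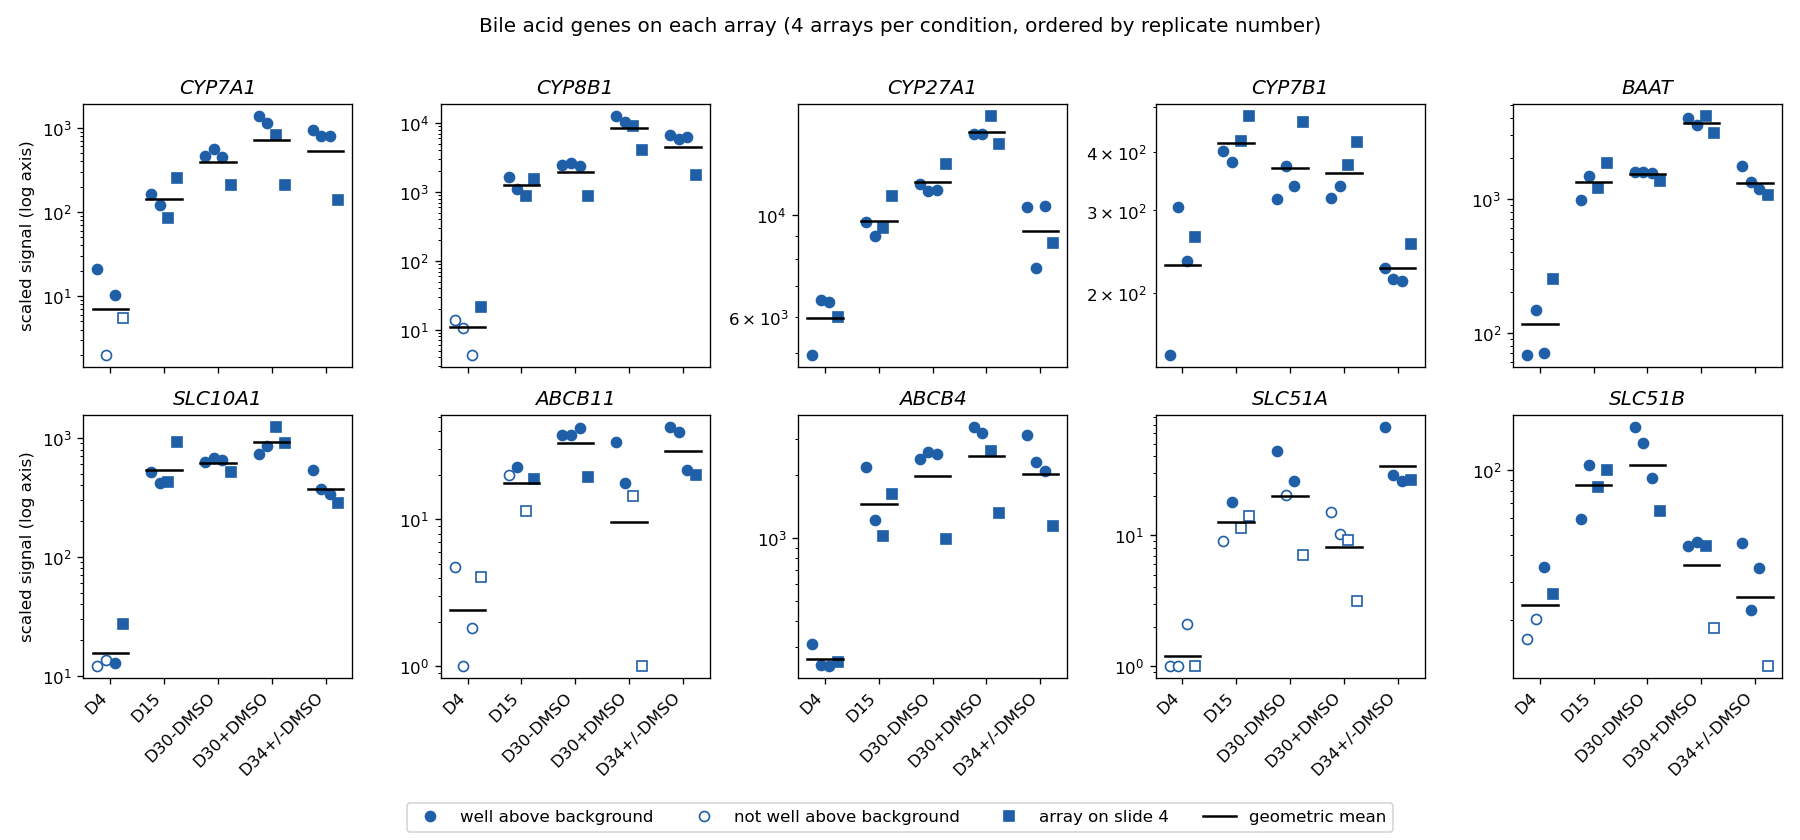
Scaled signal of the 10 bile acid genes on each of the 20 arrays (log axis, values at or below 1 drawn at 1), 4 per condition in the order of their replicate numbers, with the geometric mean as a line. 9 of the 10 genes have their lowest mean in D4 and CYP7B1 has it in D34 +/- DMSO, CYP8B1 reaches 4008 to 12813 in D30 + DMSO, and the last square of a condition, replicate 4 on slide 4, often sits below the other arrays.

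A gene is called below where its adjusted p in the limma fit over all 22221 genes was under 0.005 and the fold change above 2. Between D4 and D15, 7 of the 10 genes were called higher, where 5.76% of all genes were, and 0 of 10 were called lower, where 3.67% were. The median log2 difference was 3.13 over the 10 genes and 0.04 over all genes. The 7 were CYP7A1, CYP8B1, BAAT, SLC10A1, ABCB4, SLC51A and SLC51B. Of these only BAAT and ABCB4 passed the filter in D4 as well, and only they were called where all arrays had to pass it. All 10 hepatocyte markers rose at the same step and all 10 proliferation markers fell, and in bulk RNA a larger share of hepatocyte-like cells cannot be told apart from more RNA per cell. The mean of the hepatocyte list lay between 1.60 and 2.85 on the D4 arrays and between 6.17 and 6.65 on the D15 arrays (log2 relative to the 75th percentile), and its part in the result was not tested.

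The CYP8B1 signal was 13.8, 10.7, 4.33 and 21.4 on the D4 arrays, with 1 of 4 well above background, and 1668, 1113, 870 and 1530 at D15. The log2 difference was 6.86 ± 0.52 (SE), with an adjusted p of 1.5e-08 in the limma fit. Its size depends on D4 values near background, and it was 6.56 with a floor of 10 and 4.02 with normexp. CYP7A1, the rate-limiting enzyme of the classic route, went from 21.0, 2.00, 10.4 and 5.47 to 162, 121, 84.1 and 253, a log2 difference of 4.35 ± 0.73 (adjusted p = 0.00017). At D4 its probe exceeded background on 2 of 4 arrays (replicates 1 and 3), on each by only 1 of its 2 spots. With a floor of 10 its log2 difference was 3.56. D4 and D15 did not overlap for either gene.

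Both genes named above for the alternative route were already well above background on all 4 D4 arrays. CYP27A1, the mitochondrial sterol 27-hydroxylase, gave 4953 to 6522 at D4 and 8988 to 10951 at D15, a log2 difference of 0.71 ± 0.13 with an adjusted p of 0.00033. CYP7B1, the oxysterol 7α-hydroxylase, gave 147 to 306 and 381 to 479, a log2 difference of 0.87 ± 0.19 with an adjusted p of 0.0017. The arrays of D4 and D15 did not overlap for either gene, but both differences stayed under 2-fold and neither gene was called.

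Conjugation and uptake rose together at this step. BAAT measured 68.3, 148, 70.4 and 251 at D4 and 979, 1486, 1197 and 1842 at D15, 11.6-fold higher (log2 difference of 3.53 ± 0.32, adjusted p = 1.3e-07). SLC10A1, which is also the entry receptor of hepatitis B virus, measured 12.0, 13.4, 12.7 and 27.4 at D4, with 2 of 4 arrays well above background, and 517, 419, 428 and 932 at D15. Its log2 difference was 5.14 ± 0.28 (adjusted p = 5.1e-10), again against D4 values near background.

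Among the exporters, ABCB4, the phosphatidylcholine floppase, was measured on all arrays and went from 242 to 309 at D4 to 1027 to 2185 at D15, 5.55-fold higher (adjusted p = 4.1e-05). ABCB11 was near background throughout. Its signal was 4.76, 0.16, 1.81 and 4.05 at D4, with 0 of 4 arrays well above background, and 20.1, 22.6, 11.4 and 18.7 at D15, with 2 of 4. With D4 values raised to the lowest signal well above background on each array, ABCB11 was 2.67-fold higher. This is no lower bound, since only 2 of 4 D15 arrays were well above background. With a floor of 10 its log2 difference was 0.82 (adjusted p = 0.096). Its adjusted p in the limma fit was 0.0096, and it was not called.

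SLC51A and SLC51B are the subunits of the organic solute transporter. SLC51B measured 16.2, 20.2, 35.1 and 26.3 at D4, with 2 of 4 arrays well above background, and 58.9, 106, 83.4 and 99.8 at D15 (3.62-fold, adjusted p = 0.0020). SLC51A exceeded background on 0 of 4 D4 arrays and on 1 of 4 D15 arrays, where it measured 8.98, 18.0, 11.3 and 14.0. With D4 values raised to the lowest signal well above background on each array, SLC51A was 1.92-fold higher. This is no lower bound, since only 1 of 4 D15 arrays was well above background. Of its 4 D4 values 3 were below 0 after background subtraction. Its call (adjusted p = 6.1e-05) rested on the fitted values with signals under 1 set to 1. With a floor of 10 its log2 difference was 0.38 (adjusted p = 0.54) and 6 genes were called. D4 and D15 did not overlap for either subunit. With normexp background correction and an offset of 50, which compresses low signals, the log2 differences were 1.60 for CYP7A1, 4.02 for CYP8B1, 2.82 for SLC10A1, 0.72 for SLC51B, 0.26 for SLC51A and 0.24 for ABCB11, and CYP7A1, SLC51A and SLC51B were no longer called.

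**Figure D2:**
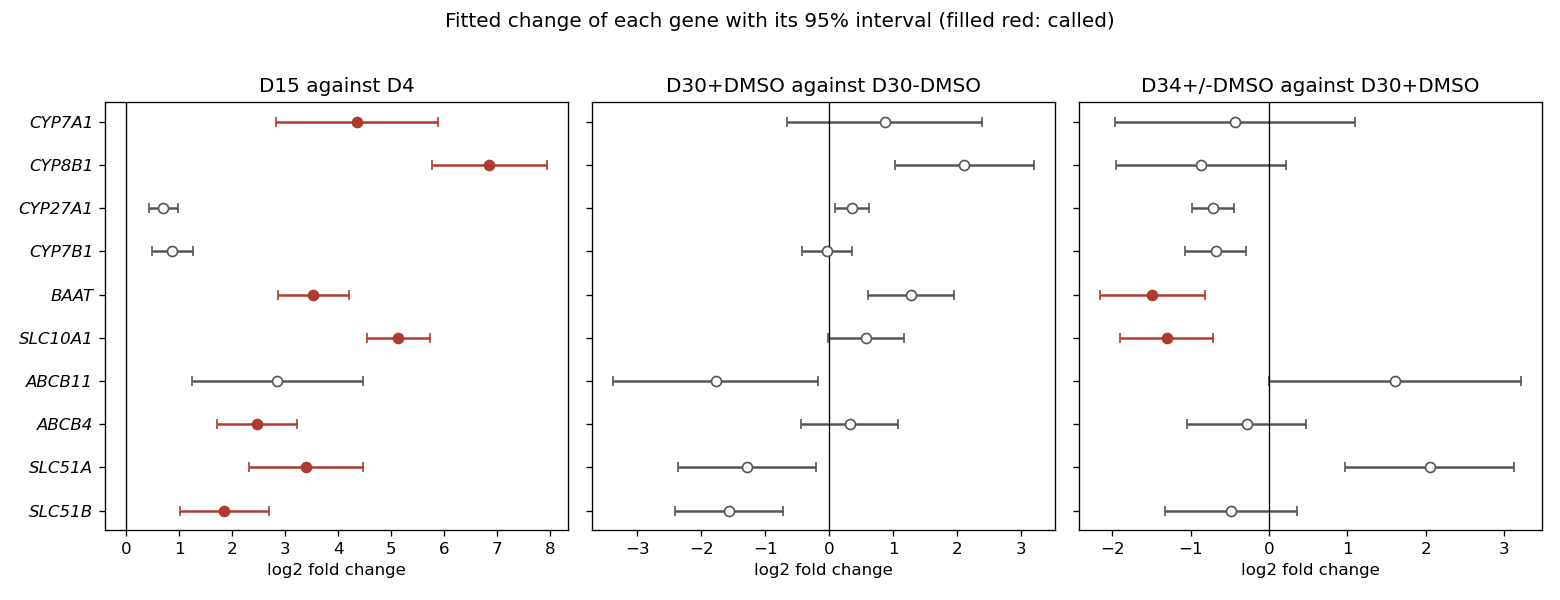
Fitted log2 fold change of each gene (horizontal axis) with its 95% interval for differentiation, DMSO addition and DMSO removal, filled red where the gene was called. 7 genes are called for D15 against D4, 0 for DMSO addition and BAAT and SLC10A1 for DMSO removal.

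From D15 to D30 without DMSO, limma called 0 of the 10 genes higher, where 0.0045% of all genes were, and 0 of 10 lower, where 0% were. The methods' t-test called 0 as well. At an unadjusted p under 0.05 only CYP27A1 passed (11236 to 12886 against 8988 to 10951), where 2.99% of all genes did. CYP7A1 had the largest fitted difference, with 464, 562, 453 and 208 at D30 - DMSO and a log2 difference of 1.47 (95% interval of -0.06 to 3.00), and its D15 and D30 - DMSO arrays overlapped.

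DMSO addition was compared as D30 + DMSO against D30 - DMSO, on the same day. 0 of the 10 genes were called higher, where 1.71% of all genes were, and 0 were called lower, where 4.15% were. At an unadjusted p under 0.05 there were 6 of 10, namely CYP8B1, CYP27A1, BAAT, ABCB11, SLC51A and SLC51B, where 28.7% of all genes passed. CYP8B1, BAAT and SLC51B exceeded 2-fold with adjusted p-values between 0.005 and 0.01, and the methods' t-test called BAAT alone. With the slide as a block, CYP8B1 and SLC51B were called, where 2.51% of all genes were called higher and 4.68% lower. The median log2 difference was 0.34 over the 10 genes and 0.04 over all genes. Of the marker lists, 1 of 10 hepatocyte markers (AHSG) fell with DMSO. The other 9 had uncalled log2 differences of 0.11 to 1.05, with a list median of 0.41, and the hepatocyte list mean lay between 6.65 and 6.81 without and between 6.80 and 7.12 with DMSO. The biliary and progenitor marker SOX9 rose and SPP1 fell, and 0 of 10 proliferation markers were called. The mean of the 7 biliary and progenitor markers lay between 1.17 and 1.44 without and between 1.07 and 1.29 with DMSO, and the part of these lists in the result was not tested.

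CYP8B1 measured 2493, 2590, 2407 and 865 without DMSO and 12813, 10236, 9104 and 4008 with it. The lowest array with DMSO lay above the highest without, and the log2 difference was 2.12 ± 0.52, or 4.34-fold (adjusted p = 0.0067). With the slide as a block it was 2.39 ± 0.53 (adjusted p = 0.0033). Within slide 3 the difference was 2.20 and within slide 4 it was 2.80. Replicate 4 was lowest in both conditions, and without the 7 arrays of slide 4 the log2 difference was 2.20 (adjusted p = 0.0047).

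BAAT measured 1592, 1570, 1564 and 1352 without DMSO and 4026, 3519, 4173 and 3117 with it, again with no overlap. Its log2 difference was 1.28 ± 0.32, or 2.43-fold (adjusted p = 0.0075), and 1.17 ± 0.33 with the slide as a block (adjusted p = 0.014). It was 1.24 within slide 3 and 1.42 within slide 4. SLC10A1 measured 631, 684, 648 and 515 without and 739, 856, 1237 and 912 with DMSO, a log2 difference of 0.58 ± 0.28 (adjusted p = 0.19). Its arrays did not overlap either, but the difference stayed under 2-fold.

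CYP7A1 differed by 0.87 ± 0.73 (adjusted p = 0.51). It measured 1398, 1144, 822 and 209 with DMSO, and replicate 4 alone fell among the arrays without DMSO. Within slides the difference was 1.45 and 0.99. CYP27A1 gave 14262 to 16424 with DMSO against 11236 to 12886 without, a log2 difference of 0.36 ± 0.13 (adjusted p = 0.053). CYP7B1 gave 318 to 421 against 317 to 464, with an interval of -0.42 to 0.36 for its log2 difference. ABCB4 gave 1327 to 3414 against 987 to 2590, with an interval of -0.44 to 1.08.

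Values of 3 exporters lay lower with DMSO. SLC51B measured 159, 134, 91.6 and 64.5 without DMSO and 44.4, 46.4, 44.1 and 18.2 with it, with no overlap. The log2 difference was -1.56 ± 0.40, or 2.96-fold lower (adjusted p = 0.0097), and -1.76 ± 0.33 with the slide as a block (adjusted p = 0.00091). It was -1.81 within slide 3 and -1.19 within slide 4. The probe was well above background on 3 of 4 arrays with DMSO. It had passed the filter through D30 - DMSO, the high group here, and through D15, which is outside this comparison.

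The SLC51A probe exceeded background on 0 of 4 arrays with DMSO and on 2 of 4 without. With its DMSO values raised to the lowest signal well above background it was 1.90-fold lower, which is no lower bound. Its adjusted p in the limma fit was 0.097, and its arrays overlapped. ABCB11 measured 37.5, 37.7, 42.1 and 19.5 without DMSO and 33.6, 17.7, 14.3 and -0.82 with it, where 2 of 4 arrays were well above background. Its log2 difference of -1.77 ± 0.76 (adjusted p = 0.13) leaned on replicate 4, whose negative signal was set to the floor of 1. Without the arrays of slide 4 the difference was -0.68.

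**Figure D3:**
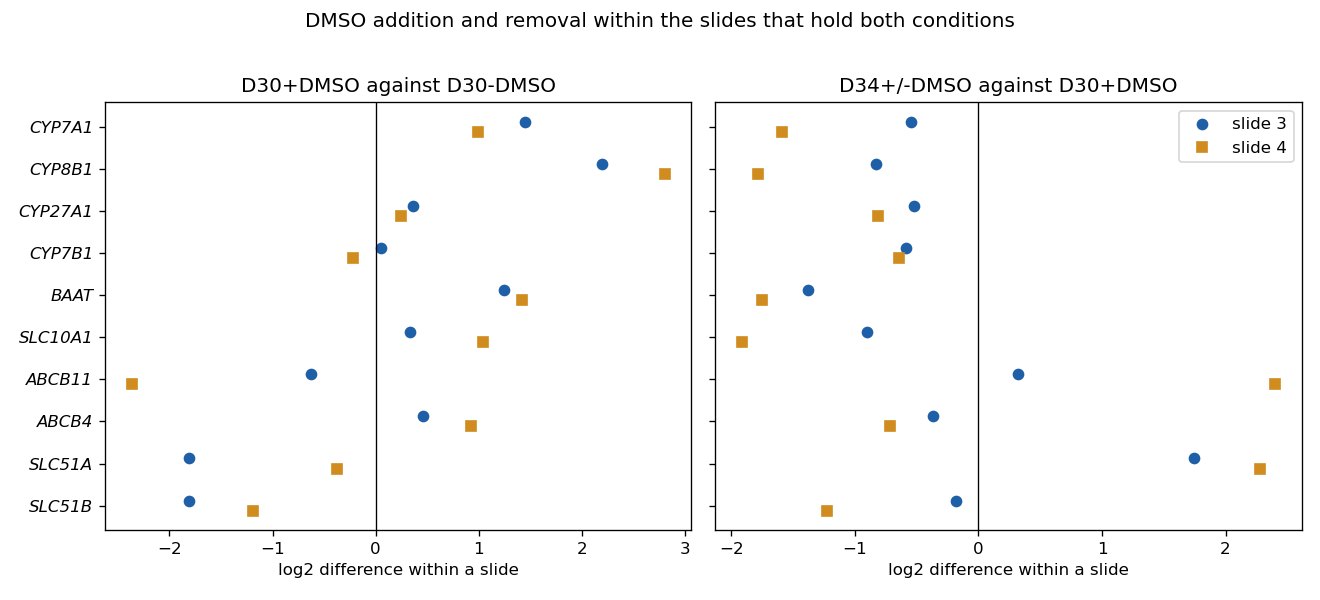
Log2 difference of each gene for DMSO addition (left) and DMSO removal (right), taken within slide 3 (circles) and within slide 4 (squares), the slides that hold both conditions. CYP7B1 changes sign between the slides for DMSO addition (0.05 and -0.22), and the other 9 genes keep theirs in both comparisons.

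DMSO removal was compared as D34 +/- DMSO against D30 + DMSO. Of the 10 genes 2, BAAT and SLC10A1, were called lower, where 2.09% of all genes were, and 0 were called higher, where 4.91% were. The median log2 difference was -0.58 over the 10 genes and -0.07 over all genes. All 10 proliferation markers rose at this step. Of the 10 hepatocyte markers AHSG rose and 0 were called lower, with a list median of -0.28. The other 9 all had negative log2 differences, down to -1.41 for APOA1 (adjusted p = 0.0092). The hepatocyte list mean lay between 6.80 and 7.12 in D30 + DMSO and between 6.68 and 6.99 in D34 +/- DMSO. The mean of the proliferation list lay between -2.30 and -1.15 on the D30 + DMSO arrays and between 0.84 and 1.81 on the D34 +/- DMSO arrays, and the part of either list in the result was not tested. The comparison also spans 4 days of age, which cannot be told apart from the removal.

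BAAT measured 1755, 1325, 1188 and 1070 after removal, below all 4 arrays of D30 + DMSO and beside those of D15 and D30 - DMSO. The log2 difference was -1.49 ± 0.32, or 2.81-fold lower (adjusted p = 0.0020), with -1.38 and -1.75 within slides 3 and 4. SLC10A1 measured 534, 375, 338 and 282, also below all arrays of D30 + DMSO, and fell 2.47-fold (log2 difference of -1.31 ± 0.28, adjusted p = 0.0024), with -0.91 and -1.91 within the slides. Each call also ended in 6 of 20 fits that left out 1 array, and both ended without the arrays of slide 4, at adjusted p-values of 0.014 for BAAT and 0.0068 for SLC10A1, with log2 differences of -1.42 and -0.97.

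CYP27A1 gave 7636 to 10424 after removal, below every D30 + DMSO array, with a log2 difference of -0.72 ± 0.13. Its adjusted p of 0.00038 passed, but the change was under 2-fold. CYP7B1 gave 212 to 254 against 318 to 421 and did not overlap either (log2 difference of -0.68 ± 0.19, adjusted p = 0.012). CYP8B1 measured 6678, 5898, 6204 and 1750 after removal and overlapped with D30 + DMSO (log2 difference of -0.87 ± 0.52, adjusted p = 0.28). The intervals were -1.96 to 1.09 for CYP7A1 and -1.05 to 0.47 for ABCB4.

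SLC51A measured 67.0, 28.9, 25.8 and 26.2 after removal, well above background on 4 of 4 arrays, against 0 of 4 before it. With D30 + DMSO values raised to the lowest signal well above background on each array, SLC51A was 3.21-fold higher, which is no lower bound. With a floor of 10 its log2 difference was 1.60. It had passed the filter only through D34 +/- DMSO, the high group here, so its p in this comparison is not read. SLC51B, the partner subunit, stayed low at 45.7, 22.2, 34.8 and 12.1 (log2 difference of -0.49 ± 0.40, adjusted p = 0.48). ABCB11 measured 42.4, 39.5, 21.7 and 20.02, with a log2 difference of 1.61 ± 0.76 (adjusted p = 0.16) that was 0.32 within slide 3 and 2.40 within slide 4.

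Set against D30 - DMSO cells, which never met DMSO, the D34 +/- DMSO cells had 1 of the 10 genes called lower, SLC51B, where 0.212% of all genes were, and 0 called higher, where 1.3% were. SLC51B was 4.14-fold lower (log2 difference of -2.05 ± 0.40, adjusted p = 0.0041) and its arrays did not overlap. It had passed the filter through D30 - DMSO, the high group here, and through D15, which is outside this comparison. The difference was -2.04, -1.99 and -2.41 within slides 1, 3 and 4, and -2.26 with the slide as a block (adjusted p = 0.00026). The adjusted p lay close to the threshold and passed it in 6 of 20 fits that left out 1 array, with log2 differences of -1.69 to -2.33 over the 20. Of the 10 proliferation markers 8 were called higher in the same comparison, with a list median of 2.39, and their part in the result was not tested. CYP8B1 had a log2 difference of 1.25 ± 0.52 (adjusted p = 0.23) and CYP7B1 one of -0.71 ± 0.19 (adjusted p = 0.031).

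From D15 to D30 + DMSO, 2 of the 10 genes were called higher, CYP8B1 and BAAT, where 2.19% of all genes were, and 0 were called lower, where 4.21% were. CYP8B1 was 6.63-fold and BAAT 2.75-fold higher. With the slide as a block SLC51B was called lower as well (log2 difference of -1.46, adjusted p = 0.0026). SLC51B had passed the filter through D15, the high group here, and through D30 - DMSO. This comparison joins 15 days of culture to the effect of DMSO, and it shares arrays with those above.

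Over the 5 conditions together, the F-test called 3 of the 10 genes (Bonferroni-adjusted p under 0.001, with over 3-fold from the lowest to the highest mean), where 5.31% of all genes were called. They were CYP8B1, SLC10A1 and BAAT. BAAT, measured on all arrays, spanned 31.9-fold, and no span is given for CYP8B1, SLC10A1 and CYP7A1, whose lowest means, in D4, lay near background. CYP7A1 had a Bonferroni-adjusted p of 0.0036. CYP27A1 (2.55-fold) and CYP7B1 (1.86-fold) had the narrowest spans. The order of the mean levels was D4, D15, D30 - DMSO, D34 +/- DMSO and D30 + DMSO for CYP7A1, CYP8B1 and ABCB4, and in each of these genes D30 - DMSO and D34 +/- DMSO overlapped. SLC51A instead was highest in D34 +/- DMSO and SLC51B in D30 - DMSO.

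Pairs of genes of 1 route or complex were compared within each array, so that a scaling factor cancels. In 13 such exact two-sided permutation tests the smallest p that 4 against 4 arrays allow is 0.029, which became 0.062 after adjustment over the 13, so 0 passed 0.05. For DMSO addition the log2 difference of CYP7A1 minus that of CYP8B1 was -1.25 ± 0.27 (exact permutation p = 0.029). ABCB11 minus ABCB4 was -2.10 ± 0.82 for addition and 1.89 ± 0.83 for removal, each at the same exact permutation p. Without the arrays of slide 4, which hold the negative ABCB11 signal of D30 + DMSO replicate 4, they were -1.08 and 0.86. CYP7A1 minus CYP8B1 was then -0.83. ABCB11 had passed the filter through D30 - DMSO, its high group for addition, and D34 +/- DMSO, its high group for removal. Each comparison leaves the other group out, but only 2 of 4 D30 + DMSO arrays put ABCB11 well above background. SLC51A and SLC51B were not tested as a pair, because no array of D4 or D30 + DMSO put SLC51A above background.

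Genes with the most similar profile over the 20 arrays were found by Pearson r among 14232 genes, as a description, since all genes share the arrays, the slides and the step from D4 to D15. For CYP8B1 they were MTTP (r = 0.998), which loads lipid onto apolipoprotein B, the coagulation factor F12 (0.995) and the sterol exporter ABCG8 (0.994). For BAAT they were AZGP1 (0.993), PECR (0.983) and VTN (0.983), and for SLC10A1 they were SMOC1 (0.989), FMO5 (0.988) and C1S (0.985). CYP7A1 was closest to the urea cycle gene OTC (0.974), to DRAIC and to IL22RA1, and ABCB4 to MAB21L4 (0.980), CDH1 and DRAIC. CYP27A1 was closest to CHN2 (0.974), MSRB2 and ASB13, and CYP7B1 to SLC25A4 (0.902), PNPLA4 and MAOA. ABCB11 was closest to the complement gene C9 (0.945), CPS1 and CLDN7, SLC51A to OR1E1 (0.966), VNN1 and SKAP1, and SLC51B to INMT (0.918), VEPH1 and TFF3.

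Around the 10 genes, 13 of 14 other enzymes of bile acid synthesis were tested. Between D4 and D15, 5 were called higher and 0 lower, where 5.76% and 3.67% of all genes were. DMSO addition called 3 higher and 0 lower, where 1.71% and 4.15% of all genes were. Removal called 0 higher and 2 lower, where 4.91% and 2.09% were. SLC27A5, the ligase that prepares bile acids for BAAT, was among them at all 3 steps. It measured 18.8 to 20.1 at D4, 1412 to 2179.9 at D15, 1377 to 3021 at D30 - DMSO, 6274 to 11009.8 at D30 + DMSO and 1168 to 3407 at D34 +/- DMSO. Its log2 difference was 1.86 for DMSO addition (adjusted p = 0.00016) and -1.99 for removal (adjusted p = 6.6e-05). SCP2, a sterol carrier with peroxisomal thiolase activity, differed by 1.23 and -1.27, and AKR1C4, a ketosteroid reductase, by 1.35 with DMSO. HSD3B7, the next step after CYP7A1, rose 2.67-fold to D15 and differed by 0.01 and 0.06 at the DMSO steps. AKR1D1, the 5β-reductase, exceeded background on 0 of 4 D4 arrays and 2 of 4 D15 arrays, and ACOX2, which shortens the side chain, rose by 4.66 on the log2 scale.

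Of 13 other bile acid and bile transporters 12 were tested. From D4 to D15, 5 were called higher and 1 lower, with DMSO 2 higher and 1 lower, and after removal 1 higher and 0 lower. The shares of all genes were those given for the enzymes, and single calls are not read as particular to this list. ABCG8 rose by 6.17 to D15 and by 2.08 with DMSO on the log2 scale. Its D4 signals of 6.27 to 25.1 lay near background, and the size of the rise to D15 depends on them. The uptake carriers SLCO2B1 and SLCO1B1 rose by 5.48 and 4.36 to D15, and SLCO1B1 by 1.14 with DMSO. FABP6, the ileal bile acid binding protein, went the other way, with log2 differences of -2.31 for DMSO addition and 1.98 for removal. ABCC2 (MRP2), the canalicular exporter of conjugates, differed by 0.84 with DMSO (adjusted p = 0.014). SLC10A2, the intestinal uptake carrier, did not pass the filter.

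Of 16 regulators 15 were tested, and FGF19 did not pass the filter. Between D4 and D15, 9 were called higher and 1 lower, with DMSO 2 higher and 1 lower, and after removal 1 higher and 2 lower. Shares of all genes were again those given for the enzymes, and single calls are not read as particular to the regulators. NR1H4 (FXR) rose by 3.42 on the log2 scale to D15 and then differed by -0.01 for DMSO addition (adjusted p = 0.99) and -0.15 for removal (adjusted p = 0.79). NR0B2 (SHP), the repressor that FXR induces, measured 378, 361, 295 and 194 at D30 - DMSO, 553 to 1323 with DMSO and 68.5 to 192 after removal. Its log2 differences were 1.56 (adjusted p = 0.0022) and -2.80 (adjusted p = 5.3e-06). The constitutive androstane receptor NR1I3 followed the same order, with 2.43 and -2.04, and the vitamin D receptor VDR the opposite one, with -1.35 and 1.12. The FGF19 co-receptor KLB rose by 4.07 to D15 and differed by 0.03 and 0.39 afterwards, and FGFR4 differed by 0.56, 0.51 and -0.43. The D4 signals of KLB, 3.15 to 14.8, lay near background.

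**Figure D4:**
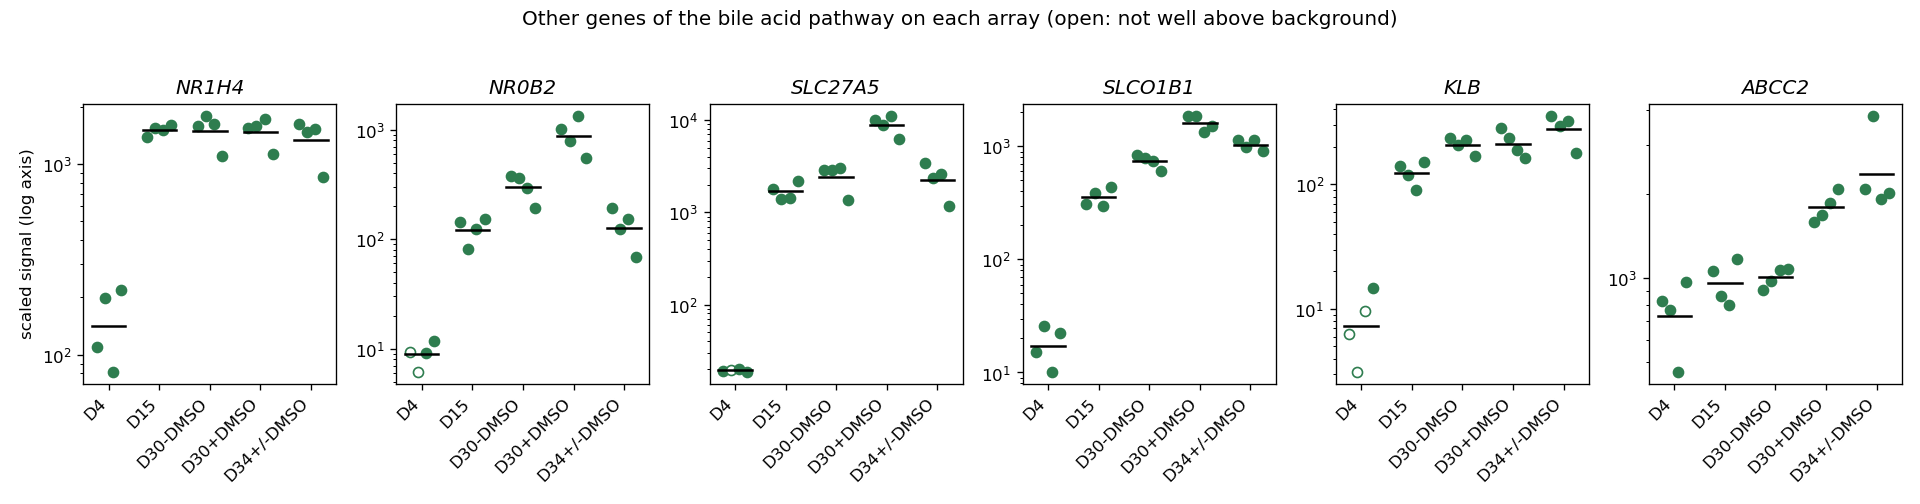
Scaled signal (log axis) of 6 other genes of the pathway on each array, 4 per condition in the order of their replicate numbers, with the geometric mean as a line and open symbols where the probe was not well above background. NR0B2 and SLC27A5 are highest in D30 + DMSO on all 4 arrays, while NR1H4 has its step between D4 and D15.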

How the data were processed

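Total RNA of HepaRG cells was measured on one-colour Agilent SurePrint G3 8x60K arrays, 4 per condition. The authors extracted spot signals with Agilent Feature Extraction (version 10.7.3.1 in the submitters' processing notes, 10.7.1.1 in the file headers) and deposited them as background-subtracted intensity per spot. The deposited matrix holds log2 values, centred per probe by a baseline the authors did not state, with column medians of -0.20 to 0.17, and served as an alternative. Here outlier spots were left out, spots of a probe were averaged, arrays were scaled to a common 75th percentile of 546, signals under 1 were set to 1, and log2 was taken. The 75th percentile of the arrays ran from 407 to 766 before scaling. Of 42405 probes, 26538 were well above background on all 4 arrays of a condition (at least 50% of a probe's spots flagged), and the brightest probe was kept for each of 22221 genes. Differences were fitted with limma 3.58.1 (R 4.3.3) on all 20 arrays with Benjamini-Hochberg adjustment, at an adjusted p of 0.005 and 2-fold, and over the conditions at a Bonferroni p of 0.001 and 3-fold, thresholds that the study's methods state. For a gene well above background on no array of a group, that group's values were also raised to a limit on each array. The limit was the lowest signal well above background of any probe on the array, and the resulting fold is not a lower bound. Errors are SE unless stated, and the number of arrays limits the precision. The fit was checked on simulated data with 200 changed genes. The simulated noise was independent between arrays, so the check does not cover the likeness of arrays on the same slide.

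The 10 genes were given by name, and they and the pathway lists were chosen with earlier results of these data known. Other genes are named where they were in a short list of pathway genes, were among the 3 called genes of a list with the largest change, or were among the 3 most similar to a member. The labels give 4 independent experiments but do not tie a replicate number to one. Same-numbered arrays of different slides had a median correlation of 0.07 in their deviations (22 pairs, 9 above 0.1). Differently numbered arrays of different slides had one of -0.21 (94 pairs, 17 above 0.1), so same-numbered arrays were more alike. Whether they share an experiment was not tested. As the labels do not say so, the numbers were not a block in the reported fit, and the replicate block is given as an alternative.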

Additional observations from a re-analysis of the deposited data

Results flagged for a closer look

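In each of 50 groups of 4 arrays (10 genes in 5 conditions), the gap between the most extreme array and its nearest neighbour was set against the whole range of the group on the log2 scale. In 10 groups the gap exceeded the 95% limit for 4 values, and 8 of the 10 were replicate 4, on slide 4. Chance gives about 1 in 20 for independent groups. These groups share the same arrays, so 1 low array can flag several genes, and the count is not set against that rate. CYP8B1 was low in replicate 4 of D30 - DMSO (865, ratio of 0.933) and of D34 +/- DMSO (1750, ratio of 0.907), and CYP7A1 in replicate 4 of D34 +/- DMSO (137, ratio of 0.904). In D30 - DMSO, replicate 4 was also low for ABCB4 (987, ratio of 0.923), BAAT (1352, ratio of 0.893) and ABCB11 (19.5, ratio of 0.852). SLC51B was low in D30 + DMSO replicate 4 (18.2, ratio of 0.948), where its probe was not well above background. SLC10A1 was high in D4 replicate 4 (27.4, ratio of 0.863). The other 2 were on slide 3. SLC51A was high in D34 +/- DMSO replicate 1 (67.0, ratio of 0.879), and in D4 replicate 3 (2.10, ratio of 1.000) it was the only array above the floor of 1, on which the other 3 lay.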

How the results depend on the processing

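Of 804 log2 differences of the 10 genes under 14 alternative settings, 752 kept their direction and their side of the threshold, 24 lost a call, 25 gained one and 3 changed sign, none of which was called. Between D4 and D15 the 7 genes called became 4 with normexp background correction (offset of 50), 6 with a floor of 10 (without SLC51A), 2 where a probe had to be well above background on all arrays (fewer genes tested) and 4 by the methods' t-test. For DMSO addition the 0 genes called became 2 with normexp, 2 with the slide as a block, 3 at an adjusted p of 0.05, and 1 when values under 10 were raised to it, when scan session was the block, in a fit of the compared arrays alone, by the methods' t-test and, chosen after seeing the data, without the arrays of slide 4. For removal against D30 + DMSO the 2 genes became 1 with quantile normalization, no filter, the filter on all arrays and the compared arrays alone, and 0 by the methods' t-test and without slide 4. Against D30 - DMSO the 1 gene, SLC51B, became 0 with normexp, no filter, the filter on all arrays, the compared arrays alone, by the methods' t-test and without slide 4. From D15 to D30 + DMSO the 2 became 1 with no filter, the filter on all arrays and without slide 4, 0 by the methods' t-test and 4 at an adjusted p of 0.05. Over the conditions the 3 became 1 with the filter on all arrays and 5 when scan session was the block. The cause was not tested. These member counts were not set against the share of all genes called under the same setting. For DMSO addition, calls among all 22221 genes went from 1304 to 695 with normexp and 581 by the methods' t-test. With the slide as a block, 2.51% of all genes were called higher and 4.68% lower. For DMSO addition at an adjusted p of 0.05 no such count is given, so that gain cannot be read as particular to these genes.

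The replicate block, with the replicate number as a term, gave 1 gene for DMSO addition (CYP8B1) and changed no other count by over 1.5 times. Leaving out each of the 20 arrays in turn gave 6 to 8 genes for D15 against D4, 0 to 2 for DMSO addition, 0 to 3 for removal, 0 to 1 against D30 - DMSO, 1 to 2 from D15 to D30 + DMSO and 3 to 5 over the conditions. BAAT and SLC10A1 were each called for removal in 14 of the 20, with adjusted p-values up to 0.0088 and 0.012. The BAAT call ended without replicate 1, 2 or 3 of D30 + DMSO or replicate 2, 3 or 4 of D34 +/- DMSO, and the SLC10A1 call without replicate 2, 3 or 4 of either. SLC51B was called against D30 - DMSO in 6 of the 20 (adjusted p of 0.0021 to 0.021), and CYP8B1 and BAAT for DMSO addition in 3 of the 20 each. Over the conditions 5 genes were called without D30 - DMSO replicate 4. Uncalled differences that changed sign were ABCB11 from D15 to D30 + DMSO (0.026 with normexp, 0.20 without slide 4, -1.48 to 0.21 with 1 array left out), ABCB4 in D34 +/- DMSO against D30 - DMSO (-0.017 without slide 4, -0.30 to 0.32 with 1 array left out) and, with 1 array left out, ABCB4 for DMSO addition (-0.013 to 0.63), CYP7B1 for DMSO addition (-0.10 to 0.078), CYP7A1 for removal (-1.03 to 0.22) and ABCB11 in D34 +/- DMSO against D30 - DMSO (-0.42 to 0.014).

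Counts over all genes moved by over 1.5 times with normexp, from 2095 to 1338, 1304 to 695, 1555 to 876 and 1421 to 806 (D15 against D4, DMSO addition, removal, D15 to D30 + DMSO), and with the methods' t-test, to 1104, 581, 494 and 583. With D34 +/- DMSO against D30 - DMSO, 336 became 170 with the compared arrays alone and 41 by the methods' t-test. From D15 to D30 - DMSO the 1 gene became 0 to 10. Normexp also took the higher share of calls from D15 to D30 + DMSO from 34.2% to 46.4%. Before adjustment, the methods' t-test passed 8, 1 and 2 of the 10 genes for differentiation, DMSO addition and removal, and 9.1%, 5.8% and 6.33% of all genes. No other probe could be tried for the paired differences, since each gene has 1. Signals of ABCB11, SLC51A and SLC51B near background limit what their differences can show.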
